A study of Mus musculus with 12 samples.

Results

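Replication-dependent histone genes encode the histones that a cell makes in bulk while it copies its DNA. They were taken here by name: every gene of the table whose current symbol belongs to the H1f1 to H1f6, H2ac, H2bc, H3c or H4c series. The older names of the genes found begin with Hist1 or Hist2. The rule found 62 genes among 23493, namely 6 H1, 17 H2A, 15 H2B, 12 H3 and 12 H4 genes. The names hold no measured value, but the family was picked because its levels in the knockout had been seen, so its values are given as a description beside those of all genes. RNA-seq had been made from mouse embryonic stem cells (ESCs), which are pluripotent cells kept in culture, in 12 libraries of 3 groups with 4 libraries each. The first group carried a knockout of Tfcp2l1, a transcription factor of the naive pluripotency network, and was grown in 2i. The second group was wild type in 2i, and the third was wild type in medium with 15% fetal bovine serum (FBS). The 2i medium had no serum and held 3 µM CHIR99021, a GSK3 inhibitor, and 1 µM PD0325901, a MEK inhibitor, and all groups received LIF at 1000 units per mL. The series' design compares knockout and wild-type cells in 2i for transcripts that depend on Tfcp2l1, and 2i and FBS in wild-type cells. The labels name neither the wild-type line nor the number of knockout clones. They also do not say that repeats were grown apart, so a p-value here reflects the spread among 4 libraries that may be technical repeats.

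Nucleosomes wrap DNA around an octamer of the core histones H2A, H2B, H3 and H4, and the linker histone H1 binds where DNA enters and leaves it. The replication-dependent genes have no introns, lie in clusters, and are transcribed in S phase with help from the coactivator NPAT in histone locus bodies. Their mRNAs are the known exception among messenger RNAs in ending without a poly(A) tail. They end in a short conserved stem-loop that the stem-loop binding protein SLBP holds, the U7 snRNP directs the cut behind it, and the mRNA is destroyed when DNA synthesis stops. Some of these genes can also give polyadenylated mRNA that runs on past the stem-loop, above all in differentiated cells. A library made from poly(A) RNA would therefore hold only part of these transcripts, and whether RNA was selected by its tail is not given in the sources used here.

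A stem-loop is the element that defines the family, so it was looked for in the transcripts of GENCODE vM21 (GRCm38). The search took the arm GGNNCT, the loop TTTN and the arm AGNNCC in direct succession, on the transcript strand, with both arms of 6 bases fully paired. Such a stem-loop stood in 57 of 141767 transcripts, which is 0.0402%, and in the transcript of 40 of the 62 histone genes. Its arms differed by class: all 30 genes of H1, H2A, H2B and H3 with a match had the arm GGCTCT, while all 10 H4 genes had GGCCCT or GGTCCT. The commonest form, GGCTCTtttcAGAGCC, was held by 23 genes. The following are the sites of 6 genes described below, 5′ to 3′ as DNA, with the paired arms in capitals.
H1f2: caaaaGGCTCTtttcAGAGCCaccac
H2ac11: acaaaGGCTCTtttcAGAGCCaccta
H2bc11: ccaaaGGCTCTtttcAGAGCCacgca
H3c3: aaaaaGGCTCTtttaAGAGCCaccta
H4c9: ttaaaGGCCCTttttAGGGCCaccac
H4c2: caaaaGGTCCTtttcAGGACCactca
In 20 of the 40 genes the annotated transcript ended within 60 bases of the stem-loop, and in the other 20 it ran more than 60 bases past it. For 22 genes, H1f1, H2bc4 and H3c8 among them, the transcript searched held no such match, which says only that these letters were not in that annotated transcript.

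The authors' table gives FPKM, fragments scaled to transcript length and to the library's mapped fragments, for RefSeq entries on the mouse build mm9. FPKM summed to 347772 to 358340 per library, and the read depth is unknown. Tfcp2l1 itself measured 76.1, 72.0, 82.9 and 84.7 FPKM in the knockout, against 133, 143, 112 and 139 FPKM in wild type in 2i, so its transcript was lower but still present in the libraries labelled knockout. All 8 ESC markers examined were expressed in every library. In the knockout 1 of them rose and 5 fell, where 24.0% of all genes tested rose and 21.4% fell. In 2i against FBS 4 rose and 1 fell, where 37.2% of all genes tested rose and 35.3% fell. All 16 fibroblast markers were above 0 too. Their summed level was 427.5 to 687.6 FPKM in the knockout and 247.6 to 360.4 FPKM in wild type in 2i, against 133.1 to 189.1 FPKM in wild type in FBS.

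The histone genes were measured at low levels. Over the 12 libraries, 18 of them averaged under 1 FPKM, 38 averaged 1 to 5 FPKM and 6 averaged 5 FPKM or more. Together they made up 0.0550% to 0.0745% of the FPKM sum in the knockout and 0.0332% to 0.0390% in wild type in 2i, against 0.0323% to 0.0369% in wild type in FBS. The authors' intervals around such values were wide. The median distance was 51.9% to 70.8% of the value to the lower bound and 16.1% to 45.0% to the upper. These medians cover the 25 to 40 entries per library at 1 FPKM or more whose upper bound was at or above the value. In the knockout these were 25 of 49, 32 of 52, 34 of 51 and 33 of 43 entries. In wild type in 2i they were 40 of 43, 36 of 42, 36 of 41 and 39 of 41. In FBS they were 33 of 40, 36 of 40, 33 of 40 and 40 of 42. The remaining entries had no such bound, most often in the knockout. Single genes are thus less certain than sums. Many of these genes also share sequence: in the median gene 48.1% of all stretches of 50 bases were also found in another histone gene of the set, with 78.9% in H2A and 1.10% in H1. How reads that match several genes were divided is not given in the sources used here, so the split between near-identical genes is uncertain.

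Histone transcripts were higher in the Tfcp2l1 knockout than in wild type, in all 5 classes. The 62 genes summed to 261, 256, 241 and 191 FPKM in the knockout libraries, against 139, 128, 131 and 119 FPKM in wild type in 2i, so the groups stood apart. The means were 237 ± 31.8 and 129 ± 8.23 FPKM (SD, n = 4 each), a ratio of 1.84. In wild type in FBS the sum was 125, 129, 114 and 132 FPKM, within the range seen in 2i but for its lowest library, and the ratio of 2i to FBS was 1.03. The sums were not carried by the highest genes: without H3c3 and H4c9 the ratio of the knockout to wild type in 2i was 1.798. In bulk RNA, more cells of a kind (here cells in S phase, for example) and more RNA per cell cannot be told apart.

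Among the 62 genes, the knockout mean was above the wild-type mean in 2i for 56 and below it for 6, and the median ratio of the means was 1.90. In 37 genes every knockout library was above every wild-type library, and in 0 every one was below; over all 19971 genes with a value above 0 in at least 1 library, 19.0% stood apart upwards and 14.6% downwards. On log2(FPKM + 1), a scale that understates the change of low genes, 46 histone genes reached 1 FPKM in at least 4 libraries and entered the limma fit over 12328 genes. At an adjusted p under 0.05, 36 of them rose, 0 fell and 10 were not called, where 45.3% of all genes tested were called, 24.0% higher and 21.4% lower. The median difference was 0.60 for these 46 genes and 0.01 for all genes tested. Of the 46, 5 reached the threshold only through the knockout libraries; of the 41 that reached it in the wild-type libraries alone, 33 rose. The other 16 genes were too low to test.

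**Figure D1:**
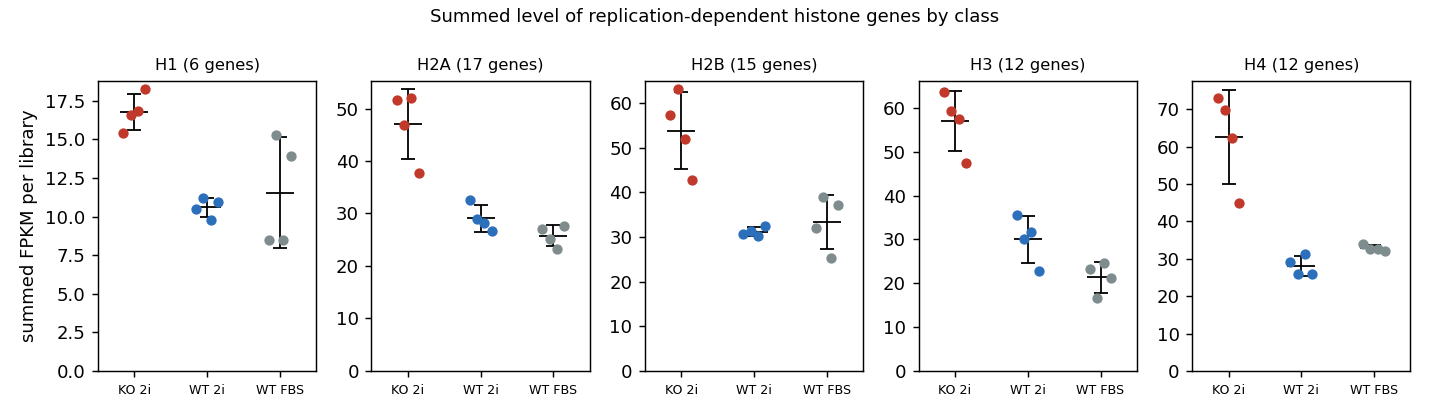
Summed FPKM of the histone genes of each class (y axis) in the 12 libraries, by group (x axis), with points for libraries and a bar with whiskers for the mean ± SD of 4 libraries. In each of the 5 panels all knockout points lie above all wild-type points in 2i, with a mean of 62.6 against 28.1 FPKM for H4.

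**Figure D2:**
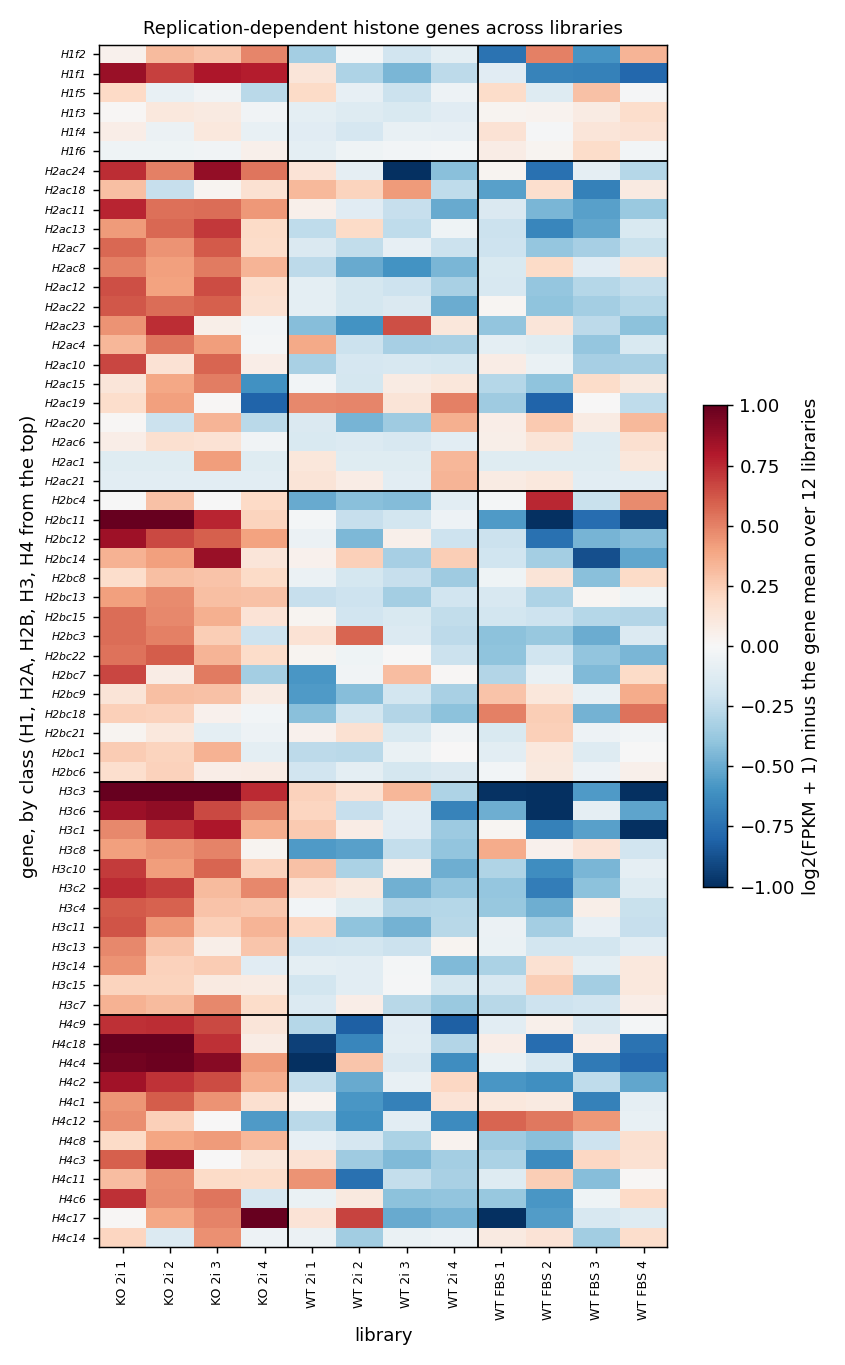
The 62 histone genes (rows, by class and within it by mean level) in the 12 libraries (columns), coloured by log2(FPKM + 1) minus the gene's mean over all libraries, with colours saturating at 1 unit. The 4 knockout columns are red for most genes of every class and palest in replicate 4, whose histone sum was 191 FPKM.

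The H4 class showed the widest gap. H4, like H3, is a core histone of the octamer, and its genes encode the same protein. The class summed to 73.2, 69.8, 62.3 and 45.1 FPKM in the knockout, against 29.2, 25.9, 31.4 and 25.8 FPKM in wild type in 2i, a ratio of 2.23. H4c9, the highest histone gene by its mean over all 12 libraries, measured 24.8, 24.98, 23.7 and 15.96 FPKM in the knockout and 11.8, 7.86, 13.4 and 7.86 FPKM in wild type in 2i, against 13.5, 15.1, 13.1 and 14.4 FPKM in wild type in FBS. All knockout libraries were above all libraries of the other groups, with replicate 4 the lowest of them, and the difference from wild type in 2i was 1.07 (SE 0.17, limma adjusted p = 0.000313). H4c18 measured 16.7, 12.5, 9.57 and 5.74 FPKM in the knockout, against 2.35, 3.06, 4.93 and 4.23 FPKM in wild type in 2i. Its groups did not overlap, though its knockout libraries spread over a wide range, and its difference of 1.33 was the largest among the histone genes tested (SE 0.29, limma adjusted p = 0.00289). The table lists H4c18 at 2 places, whose values were summed, and at 1 of them the authors marked the data as low in all 12 libraries. H4c4 measured 8.86, 8.95, 8.46 and 5.78 FPKM in the knockout, against 1.40, 5.11, 3.56 and 2.29 FPKM in wild type in 2i, a difference of 1.21 (limma adjusted p = 0.00245). H4c2, with the GGTCCT arm, rose by 0.79 (limma adjusted p = 0.0008). Of 11 H4 genes tested 8 rose, and H4c11, H4c12 and H4c17 were not called, with differences of 0.44 to 0.55. H4c3, counted among the 8, and H4c17 passed the filter only with their knockout libraries. The call of H4c3 is therefore no support for a rise. H4c12 was called without knockout replicate 4 (0.64, adjusted p = 0.015).

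All 10 H3 genes tested rose in the knockout. H3c3, the leading gene of the class, measured 25.7, 22.6, 23.8 and 18.9 FPKM in the knockout and 12.9, 12.1, 13.9 and 8.55 FPKM in wild type in 2i, against 4.97, 2.45, 7.02 and 4.76 FPKM in wild type in FBS. The 3 groups did not overlap, with the knockout highest and FBS lowest. The difference of the knockout from wild type in 2i was 0.89 (SE 0.21, limma adjusted p = 0.00463). H3c6 measured 7.75, 7.97, 6.64 and 5.91 FPKM in the knockout, against 4.63, 3.14, 3.50 and 2.05 FPKM in wild type in 2i, and rose by 0.92 (limma adjusted p = 0.00234). H3c8 rose by 0.78 (limma adjusted p = 0.000465) and H3c4 by 0.62 (limma adjusted p = 0.00159). H3c1 averaged 5.26 ± 0.891 FPKM in the knockout and 3.08 ± 0.741 FPKM in wild type in 2i (SD, n = 4 each), a difference of 0.63 (limma adjusted p = 0.0212), but the call was lost without knockout replicate 2 or 3 or wild-type 2i replicate 4 (adjusted p = 0.0547, 0.0605 and 0.0647). The class as a whole had a ratio of 1.90.

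H2A and H2B pair as dimers, and many of their genes stand head to head on a shared promoter. Of 12 H2A genes tested 9 rose. H2ac8 measured 3.51, 3.23, 3.56 and 3.02 FPKM in the knockout, against 1.65, 1.24, 1.10 and 1.32 FPKM in wild type in 2i, the smallest p among the histone genes (difference 0.90, SE 0.10, limma adjusted p = 1.48e-05). H2ac24 averaged 7.76 ± 1.11 FPKM in the knockout and 3.44 ± 1.56 FPKM in wild type in 2i (SD, n = 4 each) and rose by 1.05 (limma adjusted p = 0.00391), with all its values marked as low data by the authors. It is listed at 2 places, with the same value at both in every knockout library, and these were summed. H2ac18 and H2ac19, described next, are also sums over 2 places. H2ac11 rose by 0.78 (limma adjusted p = 0.000269) and H2ac7 by 0.63 (limma adjusted p = 0.000172). H2ac18 did not follow them: it measured 5.91, 3.79, 4.71 and 5.22 FPKM in the knockout, against 6.003, 5.53, 6.52 and 3.69 FPKM in wild type in 2i. Its groups overlapped and it was not called (difference -0.11, limma adjusted p = 0.669); the authors marked its values, too, as low data in all 12 libraries. Its neighbour H2ac19 averaged 0.758 ± 0.555 FPKM in the knockout and 1.30 ± 0.270 FPKM in wild type in 2i (SD, n = 4 each), a difference of -0.45 that was not called (limma adjusted p = 0.132). The class ratio was 1.62.

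Of 11 H2B genes tested 8 rose. H2bc11, the head-to-head partner of H2ac11, measured 13.1, 17.3, 9.10 and 5.94 FPKM in the knockout and 4.85, 4.07, 4.24 and 4.73 FPKM in wild type in 2i, against 3.02, 1.75, 2.51 and 2.10 FPKM in wild type in FBS. The 3 groups did not overlap, and the knockout libraries spread most; the difference from wild type in 2i was 1.09 (SE 0.23, limma adjusted p = 0.00233). H2bc12 rose by 0.79 (limma adjusted p = 0.000419), H2bc13 by 0.61 (limma adjusted p = 7.39e-05) and H2bc15 by 0.52 (limma adjusted p = 0.000712). H2bc22 and H2bc9 averaged 1.88 and 1.11 FPKM in the knockout, against 1.06 and 0.416 FPKM in wild type in 2i, with fitted differences of 0.48 and 0.58 (limma adjusted p = 0.00205 and 0.00112). Both were tested only because their knockout libraries lifted them past the filter, so these calls are no support for a rise. H2bc14 was not called (difference 0.39, limma adjusted p = 0.0984). The class ratio was 1.73.

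H2bc4 and the linker histone gene H1f2 split in FBS, where replicates 2 and 4 stood above replicates 1 and 3. H2ac8 and H2ac18 split the same way, and H4c18 split the other way. The entry of H2bc4 spans 8282 bases and that of H1f2 1561 bases, while 28 of the 62 entries of core histone genes span exactly a coding sequence. H2bc4 measured 11.6, 14.5, 11.6 and 13.6 FPKM in the knockout and 7.93, 8.48, 8.40 and 10.8 FPKM in wild type in 2i, against 11.5, 20.4, 9.89 and 16.6 FPKM in wild type in FBS. The knockout stood above wild type in 2i (difference 0.49, limma adjusted p = 0.0412), and FBS replicates 2 and 4 were the highest of all; the knockout call was lost without any 1 of the 2i libraries other than wild-type replicate 4 (adjusted p = 0.0534 to 0.103). H1f2 measured 9.37, 11.5, 11.2 and 13.1 FPKM in the knockout and 6.96, 8.93, 7.83 and 8.44 FPKM in wild type in 2i, against 5.05, 13.3, 5.68 and 11.8 FPKM in wild type in FBS. All knockout libraries of H1f2 were above all its wild-type libraries in 2i. H1f2 was not called in the knockout in the fit that pooled the spread of all 12 libraries (difference 0.44, limma adjusted p = 0.146). It was called in the fit to the 8 libraries in 2i alone (adjusted p = 0.00687). The other H1 gene tested, H1f1, measured 4.63, 3.96, 4.42 and 4.31 FPKM in the knockout, against 2.37, 1.49, 1.25 and 1.58 FPKM in wild type in 2i. Its groups were far apart (difference 1.01, SE 0.15, limma adjusted p = 0.000169), and 0% of its stretches of 50 bases were shared with another histone gene. H1f5 was too low to test, with means of 0.650 FPKM in the knockout and 0.654 FPKM in wild type in 2i.

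**Figure D3:**
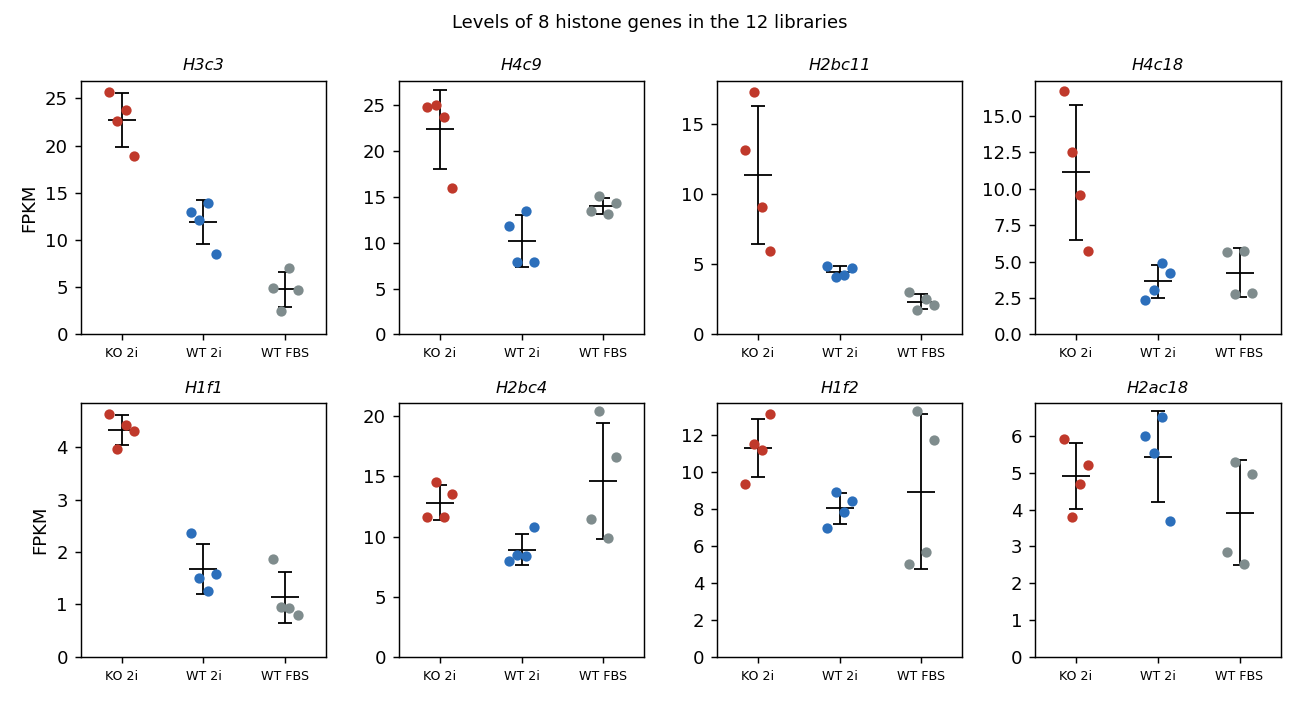
FPKM (y axis) of 8 histone genes in the 12 libraries by group (x axis), with points for libraries and a bar with whiskers for the mean ± SD of 4 libraries. All genes drawn except H2ac18 are higher in all knockout libraries than in all wild-type libraries in 2i, and H2ac18 overlaps between these groups. In FBS, replicates 2 and 4 stand above replicates 1 and 3 for H2bc4, H1f2, H2ac18 and, by less, H4c9.

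By their positions in the authors' table on mm9, the genes fall into 5 loci, 4 on chromosome 13 and 1 on chromosome 3. The summed level in the knockout was 1.82 to 2.16 times that of wild type in 2i at the 3 large loci of chromosome 13, and 1.11 times on chromosome 3, or 1.52 times there without H2ac18 and H2ac19. At the first locus (chr13:21807632-21925444, 16 genes) 9 of 14 tested genes rose and the ratio was 1.90. There H2bc22, counted among the 9, and H4c17, not called, passed the filter only with their knockout libraries. At the second (chr13:22127035-22135479, 5 genes, with H4c9 and H2bc11) all 5 rose and the ratio was 2.16. At the third and largest (chr13:23622913-23856283, 29 genes, with H3c3 and H1f1) 20 of 23 rose, the other 3 were not called, and the ratio was 1.82. H4c3 and H2bc9, counted among the 20, passed the filter only with their knockout libraries. All 29 genes there had a higher mean in the knockout than in wild type in 2i. At the chromosome 3 locus (chr3:96023839-96074115, 10 genes) 2 of 4 tested genes rose, namely H3c13 and H3c14. Its sum was 14.9, 11.8, 12.4 and 10.7 FPKM in the knockout, against 11.8, 11.3, 11.7 and 10.1 FPKM in wild type in 2i, so the groups overlapped and the ratio was 1.11. H2ac18, a low-data gene whose own groups overlapped, gave the largest share of that sum. The other 8 genes, left over by a choice made after seeing the values, summed to 8.07, 6.73, 6.92 and 5.53 FPKM in the knockout, against 4.39, 4.30, 4.23 and 4.99 FPKM in wild type in 2i, groups that did not overlap. The difference between the loci was not tested. A pair on its own (chr13:24025642-24026720), H2ac1 and the H2B gene H2bc1, which are known from testis, was too low to test.

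**Figure D4:**
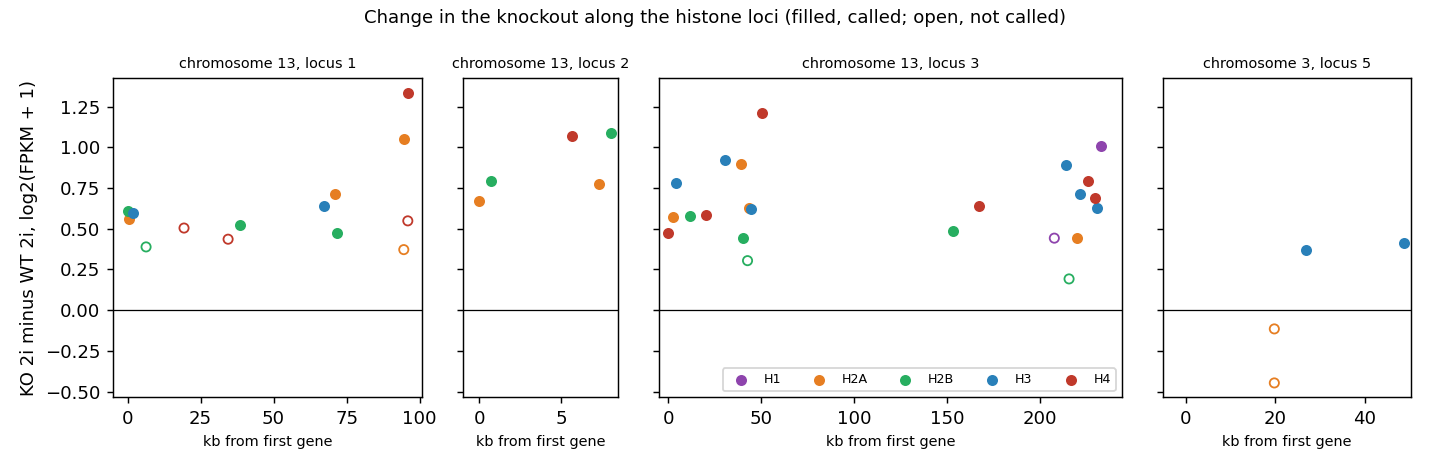
Difference of the knockout from wild type in 2i in log2(FPKM + 1) (y axis) against the distance in kb from the first gene of each locus (x axis), for the tested genes of 4 loci, coloured by histone class, with filled points for called genes and open points for genes not called; a gene listed at several places is drawn at its first. Both genes below 0 lie on chromosome 3, namely H2ac18 at -0.11 and H2ac19 at -0.45.

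Between media few of the genes were called. In wild type, 2i against FBS, 7 of 46 tested genes rose, 6 fell and 33 were not called, where 72.4% of all genes tested were called, 37.2% higher and 35.3% lower. The split between directions depended on the fit: without a filter 5 rose and 12 fell, and with the fibroblast level as a covariate, an alternative chosen after seeing the data, 11 rose and 1 fell. The median difference was 0.07 for the histone genes and 0.01 for all genes tested. Over all 62 genes, the groups stood apart upwards in 3 and downwards in 7, where 24.6% and 24.1% of all genes with a value above 0 did, and the median ratio of means was 0.997. This comparison and that of the knockout share the 4 wild-type libraries in 2i.

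The largest difference between media was that of H3c3, whose values are given above: it averaged 11.9 ± 2.34 FPKM in 2i and 4.80 ± 1.87 FPKM in FBS (SD, n = 4 each), a difference of 1.19 (SE 0.21, limma adjusted p = 0.000237). H2bc11 rose by 0.72 (limma adjusted p = 0.013), and H2bc14 by 0.53 (limma adjusted p = 0.0177). H2ac19 was called higher (0.75, limma adjusted p = 0.0104), but reached 1 FPKM in 3 wild-type libraries in 2i and in 0 in FBS, so it was tested only through libraries in 2i, and the call was lost at a pseudocount of 0.01 (adjusted p = 0.124). H2bc22, tested only through the libraries in 2i, was called too (0.31, limma adjusted p = 0.0141). H3c1 rose by 0.53 (limma adjusted p = 0.0287) and H4c2 by 0.34 (limma adjusted p = 0.0488). In the other direction, H4c12 measured 1.29, 0.814, 1.56 and 0.778 FPKM in 2i, against 3.12, 2.97, 2.72 and 1.61 FPKM in FBS, and its groups did not overlap (difference -0.77, limma adjusted p = 0.0054). H2bc4 was lower in 2i by a difference of -0.61 (limma adjusted p = 0.0076), H2bc9 by -0.55 (limma adjusted p = 0.000588; no library of wild type in 2i reached 1 FPKM), H3c8 by -0.53 (limma adjusted p = 0.00276), H2ac8 by -0.47 (limma adjusted p = 0.00067) and H4c9 by -0.45 (limma adjusted p = 0.0285). Within H3 the genes thus split, and the class sum had a ratio of 2i to FBS of 1.40, of which H3c3 gave the larger part. The ratio was 0.919 for H1, 1.13 for H2A, 0.934 for H2B and 0.854 for H4. Some of these calls hung on a library or a setting. That of H4c2 was lost without any 1 of 9 libraries (adjusted p = 0.0502 to 0.158) and under 6 other settings (0.0507 to 0.282). That of H4c9 was lost without replicate 2 or 4 of either medium (0.0578 to 0.0899), that of H3c1 without replicate 1 or 2 of 2i or replicate 2 or 4 of FBS (0.0633 to 0.0949) or with no filter (0.0514), and that of H2bc14 without replicate 4 of 2i (0.0511) or replicate 3 of FBS (0.0587).

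**Figure D5:**
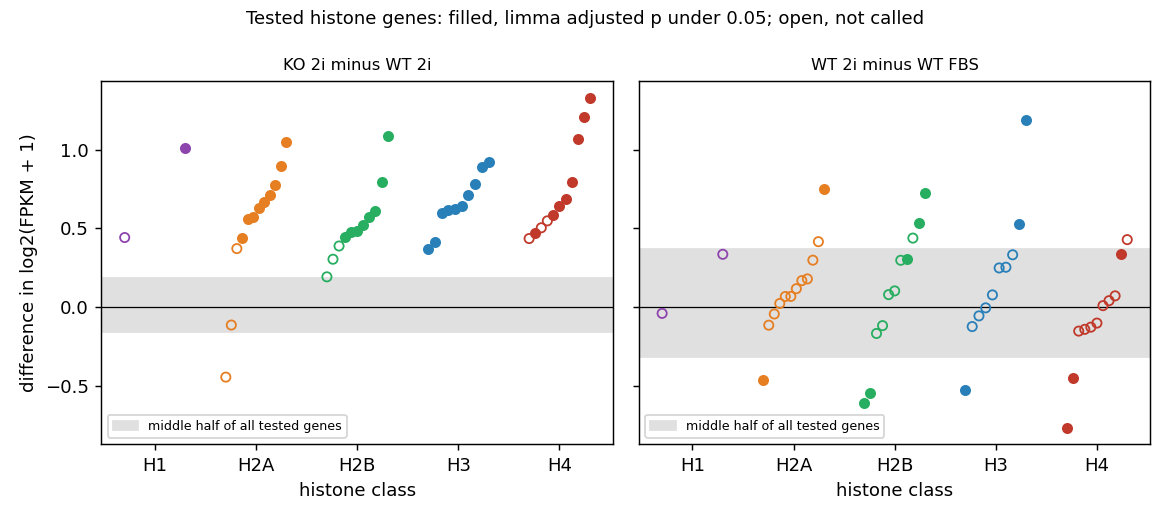
Difference in log2(FPKM + 1) (y axis) of the 46 tested histone genes by class (x axis), for the knockout minus wild type in 2i on the left and 2i minus FBS in wild type on the right, with filled points for genes called by limma, open points for genes not called, and a grey band between the quartiles of all 12328 genes tested. On the left 44 of the 46 points lie above 0, with a median of 0.60, and on the right they scatter on both sides, with a median of 0.07.

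The stretches before these genes were also compared by letters. RefSeq windows on GRCm38.p6, from 250 bases before to 50 bases after the gene's start, were matched for 57 of the 62 genes, and motifs were counted on both strands. A histone gene was counted when any of its windows held the letters, while the windows of all genes were counted singly. The shares are therefore unlike measures. Windows of head-to-head genes can also overlap, so the same stretch may be counted for both genes of a pair. CCAAT, the box that NF-Y binds, stood in a window of 49 of 57 histone genes (86.0%), against 37.4% of 32851 windows of all genes. It was found for every H1, H2A, H2B and H3 gene matched and for 3 of 11 H4 genes. TATAAA, the core of the TATA box, stood in a window of 59.6% of the histone genes, against 13.6% of all windows. ATTTGCAT, the octamer that POU factors such as Oct1 and Oct4 bind, was found for 13 histone genes (22.8%, against 1.74% of all windows). These were 7 of 13 for H2B, 6 of 17 for H2A and 0 in the other classes. GGGCGG was found for 40.4% of the histone genes, against 35.7% of all windows. Whether these letters bear on the change in the knockout was not tested. To show the contrast, the 250 bases before the start of the leading H3 and H4 genes follow, with CCAAT and its reverse ATTGG in capitals; H3c3 (chr13:23745522-23745771, minus strand) has 5 and H4c9 (chr13:22041363-22041612, minus strand) has 0.
H3c3: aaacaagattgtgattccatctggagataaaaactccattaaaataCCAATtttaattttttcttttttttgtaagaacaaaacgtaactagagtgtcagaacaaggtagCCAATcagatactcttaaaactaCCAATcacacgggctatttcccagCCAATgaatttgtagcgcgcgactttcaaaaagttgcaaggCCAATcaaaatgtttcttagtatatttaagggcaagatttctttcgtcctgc
H4c9: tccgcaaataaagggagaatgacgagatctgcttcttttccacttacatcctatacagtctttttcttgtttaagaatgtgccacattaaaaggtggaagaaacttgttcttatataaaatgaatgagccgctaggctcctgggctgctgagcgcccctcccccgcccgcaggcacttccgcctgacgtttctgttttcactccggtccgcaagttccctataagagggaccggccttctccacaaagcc

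A second list held variant and replication-independent histone genes, with H2aw and H2bu2, which are described below as just outside the naming rule. Its genes were called about as often as genes at large. Of its 13 genes tested, 3 rose and 3 fell in the knockout, near the 24.0% and 21.4% of all genes tested, with a median difference of -0.04. H2ax, the variant phosphorylated at DNA breaks, averaged 161 ± 4.98 FPKM in the knockout and 222 ± 16.3 FPKM in wild type in 2i (SD, n = 4 each), a fall with a difference of -0.46 (limma adjusted p = 0.00121). Macroh2a1, a variant of repressed chromatin, rose by 0.39 (limma adjusted p = 0.000984), while H3f3b, which encodes the replacement histone H3.3, was not called at 180 FPKM in the knockout and 185 FPKM in wild type in 2i. Between 2i and FBS, 6 genes of the list were higher in 2i and 4 lower, where 37.2% of all genes tested were higher and 35.3% lower. H2aw and H2bu2 were among the 4.

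Of 19 genes for histone transcription, 3′ end processing or decay, 5 rose and 1 fell in the knockout; the 5 are a share near the 24.0% of all genes. Slbp, which encodes the protein that holds the stem-loop, measured 65.8, 61.5, 65.5 and 62.9 FPKM in the knockout, against 72.8, 69.4, 65.6 and 66.3 FPKM in wild type in 2i, and was not called (difference -0.10, limma adjusted p = 0.1). Lsm10, a subunit of the U7 snRNP, rose by 0.31 (limma adjusted p = 0.000731), and Hinfp, an activator of H4 genes, fell (difference -0.23, limma adjusted p = 0.0062). In 2i against FBS, 4 of the 19 rose and 11 fell, where 37.2% of all genes tested rose and 35.3% fell. Of 21 histone chaperones, which carry histones to and from DNA, 10 rose and 1 fell in the knockout, where 24.0% and 21.4% of all genes did, with a median difference of 0.12. Hira, which deposits H3.3, rose by 0.40 (limma adjusted p = 0.000263), and Hat1, which acetylates new H4, was not called. In 2i against FBS 4 chaperones rose and 12 fell, beside the same 37.2% and 35.3% of all genes tested.

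Genes of S phase, when these histones are made, did not rise together in the knockout. Of 30 tested, 4 rose, 10 fell and 16 were not called, where 24.0% of all genes rose and 21.4% fell, with a median difference of -0.07. Gins2, a subunit of the replicative helicase complex, fell to 36.6 ± 0.669 FPKM in the knockout, against 55.3 ± 5.92 FPKM in wild type in 2i (SD, n = 4 each; difference -0.58, limma adjusted p = 4.28e-05). Tk1 and Ccne2, thymidine kinase and cyclin E2, also fell (differences -0.40 and -0.49, limma adjusted p = 0.00135 and 0.00344), and Rrm2, a subunit of ribonucleotide reductase, was not called. In 2i against FBS 13 rose and 8 fell, where 37.2% of all genes tested rose and 35.3% fell.

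Other RNAs without a poly(A) tail were looked at because their level depends on how RNA was selected. Of 120 in the table, 85 were listed at 0 in every library and 21 could be tested. In the knockout 1 rose and 2 fell, where 24.0% of all genes tested rose and 21.4% fell. Rmrp, the RNA of RNase MRP, measured 5.69, 6.43, 6.95 and 7.39 FPKM in the knockout, against 16.9, 21.5, 16.6 and 12.7 FPKM in wild type in 2i (difference -1.22, limma adjusted p = 0.000237). Rpph1, the RNA of RNase P, fell too, with 9.32 ± 2.82 FPKM in the knockout and 21.5 ± 4.97 FPKM in wild type in 2i (SD, n = 4 each; difference -1.14, limma adjusted p = 0.0014). Snora70, a small nucleolar RNA, was called higher with 2 wild-type libraries listed at 0. The part of RNA selection or RNA quality in the histone result was not tested.

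Fibroblast markers moved with the groups. Of 16 tested, 15 rose in the knockout and 0 fell, with Pdgfrb not called, where 24.0% of all genes tested rose and 21.4% fell. In 2i against FBS 11 markers rose and 5 fell, where 37.2% of all genes tested rose and 35.3% fell. Col3a1, a fibrillar collagen, measured 72.3, 81.1, 97.5 and 125 FPKM in the knockout, against 38.3, 44.0, 56.8 and 67.9 FPKM in wild type in 2i. None was at 0 in every library. Within the knockout the order was reversed for histones: the library with the highest fibroblast sum, replicate 4 with 687.6 FPKM, had the lowest histone sum, 191.3 FPKM, and the library with the lowest, replicate 1 with 427.5 FPKM, had the highest, 261.3 FPKM. In wild type in 2i too, replicate 4 was highest in fibroblast markers (360.4 FPKM) and lowest in histones (118.7 FPKM). In both 2i groups the fibroblast sum rose in the order of the replicate numbers. Marker level and replicate number therefore cannot be told apart within these groups. With the fibroblast level added to the model as a covariate, an alternative chosen after seeing the data, all 46 tested histone genes had a positive difference between the knockout and wild type in 2i. Their median was 0.90 in place of 0.60, the median SE grew to 0.28 from 0.17, and 22 were called, 21 of them among the 36. The fibroblast sums did not overlap between the groups, at 427.5 to 687.6, 247.6 to 360.4 and 133.1 to 189.1 FPKM. The covariate fit thus extends trends within groups beyond the range of each group, and marker level and group cannot be told apart. The part of fibroblast cells in the histone result was not tested.

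Among genes just outside the naming rule, H4bc24, which lies on chromosome 13, measured 1.87, 2.21, 1.87 and 1.85 FPKM in the knockout, against 0.900, 0.900, 1.01 and 0.974 FPKM in wild type in 2i. Its groups did not overlap and it rose by 0.60 (limma adjusted p = 4.14e-05). H2aw and H2bu2 on chromosome 11 were not called in the knockout (differences 0.10 and 0.41, limma adjusted p = 0.604 and 0.159) and were lower in 2i than in FBS (differences -0.68 and -1.15, limma adjusted p = 0.000945 and 0.000562).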

How the data were processed

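The authors deposited 1 table of FPKM values for 12 libraries, each with bounds and a status (OK, LOWDATA or FAIL), per the file headers. The authors used CASAVA 1.8.2 and Cufflinks on mm9, per the submitters' processing notes, and Trizol and a TruSeq kit, per the labels' protocols; the aligner and the RNA selection are not given in the sources used here. Of 30761 entries 98.8% received a symbol from RefSeq (GRCm38.p6); entries of a symbol were summed, and 7 genes with a failed estimate were left out. The 62 histone genes came from 68 entries; 2 further symbols of the pattern were not analysed here. Loci were split at gaps of 100000 bases.

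Genes that reached 1 FPKM in 4 or more libraries entered the test on log2(FPKM + 1) with limma 3.58.1 (R 4.3.3), 1 mean per group over all 12 libraries, eBayes with a trend, two-sided, Benjamini-Hochberg adjusted over all 12328 genes. Adjusted p-values are limma's throughout. The model was tested on simulated data. The genes and lists were chosen with earlier results of these data known. Named histone genes are the 3 highest per class and up to 3 called per class, comparison and direction with the smallest adjusted p; named genes of other lists are up to 3 called per list by smallest adjusted p, and the highest not called. H4c3, H4c11, H4c17, H3c13, H3c14, H2ac1, H2bc1, Col3a1 and the genes just outside the naming rule were named after their values were seen. Alternatives were other pseudocounts, filters, scalings, the 8 libraries of a comparison, a replicate block, the highest entry per symbol, a marker covariate and leaving out each library. Python 3.11.15, numpy 2.4.6, pandas 2.3.3 and matplotlib 3.10.9 were used.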

Additional observations from a re-analysis of the deposited data

Results flagged for a closer look

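Of 117 sets of 4 values from named genes and sums, 4 had a library far from the other 3 by Dixon's criterion at the 95% level, where chance gives about 1 in 20. H4c9 was lowest in knockout replicate 4, at 15.96 FPKM against 23.7 to 24.98 FPKM in the other knockout libraries. H4c4 was lowest in the same library, at 5.783 FPKM against 8.457 to 8.946 FPKM. H2ac19 was lowest in wild-type 2i replicate 3, at 0.8994 FPKM against 1.421 to 1.46 FPKM. H1f1 was highest in wild-type FBS replicate 1, at 1.863 FPKM against 0.7894 to 0.9482 FPKM.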

How the results depend on the processing

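The named histone genes called in the knockout kept their direction under every alternative run (H2ac18 and H2ac19, not called, turned positive under the covariate), and the number called depended on the filter and on the marker covariate. With a filter of 5 FPKM, 12 histone genes were tested: 10 were called in the knockout and 4 between 2i and FBS. With the fibroblast level as a covariate, chosen after seeing the data, 22 were called in the knockout, and 1559 of all genes (639 higher, 920 lower) in place of 5589; H4c9 then changed sign between 2i and FBS, to 0.0120 (adjusted p = 0.975). Leaving out each library gave 30 to 36 histone genes in the knockout, with 29 of the 36 called without each of the 12 libraries in turn, and 11 to 14 between 2i and FBS; for all genes 4710 to 5922 and 8506 to 8965. The same left-out libraries gave a ratio of the summed histone FPKM of 1.78 to 1.96 in the knockout comparison and 1.00 to 1.06 in that of the media; other scalings gave 1.81 to 1.87 and 0.993 to 1.03.

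Deviations of same-numbered libraries from their group means had low positive correlations. They were 0.0555 to 0.258 for knockout with wild-type libraries in 2i, and 0.0266 to 0.187 for 2i with FBS libraries. No baseline was made for them, so whether the numbers mark pairs was not tested. The main fit did not take them as pairs. With a replicate block 34 histone genes were called in the knockout and 15 between 2i and FBS, and 5567 and 8900 of all genes; H4c12 was then called in the knockout (adjusted p = 0.0219), H1f1 and H2bc12 gained a call between 2i and FBS (0.012 and 0.0223) and H4c2 lost it (0.0636). Among the named genes, 9 lost their knockout call under at least 1 setting other than a left-out library, 8 of them under the covariate alone, and H2bc4 also with no filter (adjusted p = 0.0699) and with median-ratio scaling (adjusted p = 0.0521). Between 2i and FBS, 8 named genes lost their call under such a setting, most under the covariate. The unknown depth, low levels and shared sequence limit single genes more than sums.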
